A study of Mus musculus with 2 samples.

Results

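The immediate early genes Fos, Jun, Junb, Jund, Egr1, Ier2, Ier3, Atf3, Btg2 and Arc were followed by cell identity and by preservation in single cells of the mouse dentate gyrus. They were selected by gene symbol, and all 10 were found among the 15474 genes of the filtered counts. Dentate gyri of C57BL/6J mice of mixed sex, 4 to 5 weeks old, were dissociated with enzymes and by mechanical force, and cells were sorted into plates of 384 barcodes and sequenced by SORT-seq, which counts the 3′ ends of transcripts by unique molecular identifiers (UMIs). Fresh cells were a pool of 3 mice, stained with Sytox AADvanced to leave out dead cells and sorted at once. MeOH-fixed cells were a pool of 4 mice, fixed in methanol, stored frozen for 3 weeks, rehydrated in saline sodium citrate buffer and sorted without the stain. Each condition was 1 library of pooled mice, so that no test between conditions was possible, and the intervals given are 95% intervals that cover counting error only.

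Immediate early genes are transcribed within minutes of a stimulus without new protein synthesis, mostly through kinase cascades that act on factors such as SRF and CREB. Fos and the Jun proteins pair to form the transcription factor AP-1, ATF3 and EGR1 are transcription factors of the same early wave, and other members encode short-lived regulators of growth and survival. In the hippocampus Arc and Fos are known as marks of recent neuronal activity, while microglia are known to switch on the same genes during enzymatic dissociation of brain tissue.

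The 150 bases before the start site are shown for Fos, Jun, Junb and Atf3. They were chosen among the members whose windows hold letters that factors of the AP-1, ATF and CREB families are known to bind. Btg2 also holds such a match within 150 bases and is not shown. In fresh cells every member but Arc was highest in microglia, so that level does not set these genes apart. Sequences are those of RefSeq on GRCm38.p6, written 5′ to 3′, and 7 of the 10 members had an entry (Egr1, Ier2 and Arc did not). Capitals mark matches to TGACG, TGACNTCA or TGANTCA on either strand.
Fos, chr12:85473740-85473889, plus strand: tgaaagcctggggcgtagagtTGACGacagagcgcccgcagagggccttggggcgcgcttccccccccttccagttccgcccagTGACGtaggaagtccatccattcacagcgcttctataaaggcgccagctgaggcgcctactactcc
Jun, chr4:95052223-95052372, minus strand: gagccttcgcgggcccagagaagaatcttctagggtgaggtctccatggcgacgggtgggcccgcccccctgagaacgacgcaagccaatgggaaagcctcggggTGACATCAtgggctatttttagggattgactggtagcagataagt
Junb, chr8:84978749-84978898, minus strand: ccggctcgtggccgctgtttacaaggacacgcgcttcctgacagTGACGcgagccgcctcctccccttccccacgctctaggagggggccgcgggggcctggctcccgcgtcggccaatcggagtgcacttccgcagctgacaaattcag
Atf3, chr1:191183334-191183483, minus strand: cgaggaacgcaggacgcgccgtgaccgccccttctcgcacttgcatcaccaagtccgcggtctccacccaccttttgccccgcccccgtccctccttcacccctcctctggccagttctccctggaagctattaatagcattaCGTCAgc
Fos held TGACG at 2 places and Junb and Atf3 held it at 1 place each, while Jun held the longer TGACNTCA. In the 250 bases before the start, TGACG was found in 4 of the 7 members (Fos, Junb, Atf3 and Btg2) and in 17.8% of 32851 promoters, and TGACNTCA in 2 of 7 (Jun and Btg2) and in 7.49%. TGANTCA, which takes in the AP-1 element but allows any middle base, was in none of the 7 and in 6.75% of promoters. The CArG box, bound by SRF, was in none of the 7 and in 1.47%. TATAA was in 2 of 7 (Fos and Ier3) against 22.8%, and CCAAT in 4 of 7 (Jun, Junb, Ier3 and Btg2) against 33.8%. These are matches of letters, some of which overlap, and not measured binding. Bases further than 250 before the start were not searched, so the absence of a match holds for these windows only. The start of Atf3 in RefSeq lies 34706 bases from the start of the gene in GENCODE vM21 and that of Jund 1210 bases from it, so these windows belong to the RefSeq start. Jun overlaps the antisense gene Junos, Junb overlaps Prdx2, Jund overlaps Gm11175 and Atf3 overlaps Gm24748, each on the opposite strand, and the other 6 members overlap no annotated gene.

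The filtered cells numbered 64 fresh cells with 534122 UMIs and 132 MeOH-fixed cells with 729018 UMIs, with medians of 6318 and 3451.5 UMIs per cell. Identities were the 8 that the authors assigned by clustering the same expression values, so differences between identities are descriptions. The clustering used variable genes, and whether the members were among them was not checked. The summed markers of microglia stood at 32956 CPM (UMIs scaled to a common total of each group) in fresh and 33657 CPM in MeOH-fixed microglia and at no more than 327 and 340.2 CPM in any other identity. The markers of each other identity were also highest in their own cells, except for mature neurons of the fresh library (2 cells, at 0 CPM) and immature neurons of the fresh library (1550.5 CPM, against 1639 CPM in another identity). In the MeOH-fixed library, 1 of 7 microglial cells held 16 UMIs of macrophage markers (11 of Mrc1) beside 44 UMIs of microglial markers. Of the endothelial cells, 2 fresh and 2 MeOH-fixed held pericyte markers (68 and 121 UMIs) with 4 and 1 UMIs of endothelial markers. Well barcodes were those of the same plate design, and 24 of them held a filtered cell in both libraries.

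The 10 members together had 835 UMIs in fresh and 520 UMIs in MeOH-fixed cells. Microglia held 493 of the fresh UMIs (59.0%) in 10 cells with 8.68% of the UMIs of the library, and 89 of the MeOH-fixed UMIs (17.1%) in 7 cells with 2.02% of the UMIs. The summed level was 10633 CPM (9715 to 11614) in fresh and 6052 CPM (4860 to 7447) in MeOH-fixed microglia. Endothelial cells came next, at 1082 and 1604 CPM, and nIPCs and neuroblasts, the dividing progenitors and their early neuronal progeny, followed at 996 and 1067 CPM. Immature neurons stood at 759.6 and 689 CPM and oligodendrocytes at 740.4 and 540.2 CPM. The lowest levels were in oligodendrocyte progenitor cells (OPCs; 417 and 300.2 CPM), astrocytes and radial glia-like cells (RGLs; 283 and 186 CPM) and mature neurons (245 and 210.0 CPM). In this order only microglia stood apart from the next identity in the fresh library (1 of 7 neighbouring pairs with intervals of the ratio that exclude 0 on the log2 scale). In the MeOH-fixed library 2 of 7 neighbouring pairs stood apart, microglia from endothelial cells and nIPCs and neuroblasts from immature neurons. A single cell weighed heavily in the small groups. It held 14 of 21 member UMIs in fresh OPCs, 11 of 21 in fresh endothelial cells and 32 of 73 in fresh immature neurons.

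**Figure D1:**
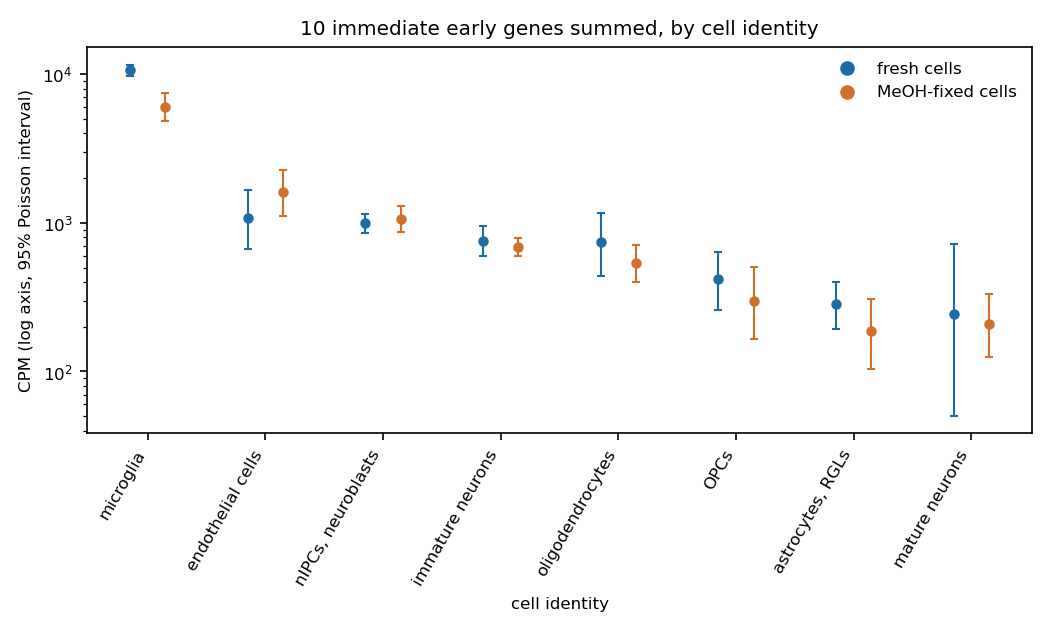
Summed CPM of the 10 immediate early genes (log axis) in each of the 8 identities, fresh in blue and MeOH-fixed in orange, with 95% Poisson intervals. Microglia stand at 10633 and 6052 CPM, and every other identity lies between 186 and 1604 CPM.

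In fresh microglia the AP-1 genes were counted in nearly every cell. Jun (chr4:95049034-95052222), the main partner of Fos in AP-1, stood at 2609.7 CPM in fresh microglia, with 0, 2839 and 4298 CPM in the lowest, median and highest of the 10 cells. In MeOH-fixed microglia it stood at 748 CPM, with 0, 469 and 3129.9 CPM in the lowest, median and highest of the 7 cells, so the cells of the libraries overlapped while their medians lay far apart. Junb (chr8:84974484-84978718), a Jun protein that restrains growth in many cells, stood at 1596 CPM in fresh microglia (0, 1136 and 3078 CPM) and at 884 CPM in MeOH-fixed microglia (0, 405 and 5477 CPM). The highest value of Junb was thus in a MeOH-fixed cell, which held 7 of the 13 UMIs of that group. Jund, the Jun protein that many cell types express without a stimulus, stood at 431 and 340.0 CPM, and its cells overlapped over most of their range (0 to 1639 CPM and 0 to 1201 CPM).

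Fos (chr12:85473890-85477273) differed in the other direction. It was counted in 8 of 10 fresh microglia at 690.2 CPM, with 0, 755 and 1475 CPM in the lowest, median and highest cell. In MeOH-fixed microglia it was counted in 5 of 7 cells at 1904 CPM, with 0, 2347 and 3644 CPM. Every MeOH-fixed cell in which Fos was counted stood above the highest fresh cell, and the remaining 2 cells of each library were at 0. By comparison, no UMI of Fos was counted in 18 fresh astrocytes and RGLs (which allows a share of cells with a UMI of up to 16.7%, and sets no limit on cells that express Fos at a low level), at a median of 5830.0 UMIs per cell against 5102 in fresh microglia.

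Egr1, a zinc finger factor, was the member with the most UMIs in fresh microglia, at 2674 CPM and with 0, 2299.6 and 5151 CPM in the lowest, median and highest cell. In MeOH-fixed microglia it was counted in 3 of 7 cells at 340.0 CPM, with 0, 0 and 937 CPM. Atf3 (chr1:191170296-191218039), a factor induced by stress, stood at 992 CPM in fresh microglia (0, 418 and 3070.3 CPM), where 1 cell held 20 of 46 UMIs. It stood at 204 CPM in MeOH-fixed microglia, with 1 UMI in each of 3 cells. For both factors the cells of the libraries overlapped at the low end, and the highest values were in fresh cells.

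Ier3, which protects cells from apoptosis, stood at 906 CPM in fresh and 612 CPM in MeOH-fixed microglia, and 8 of the 9 MeOH-fixed UMIs were in 1 cell. Ier2, a nuclear protein of the early response, had 12 UMIs (259 CPM) and 4 UMIs (272 CPM). Btg2, which slows cell division, stood at 474 CPM (0, 453 and 1475 CPM) and 748 CPM (0, 417 and 2812 CPM), and its cells overlapped. Arc was not counted in microglia of either library, which allows a share of cells with a UMI of up to 30.0% when fresh and 42.9% when MeOH-fixed.

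**Figure D2:**
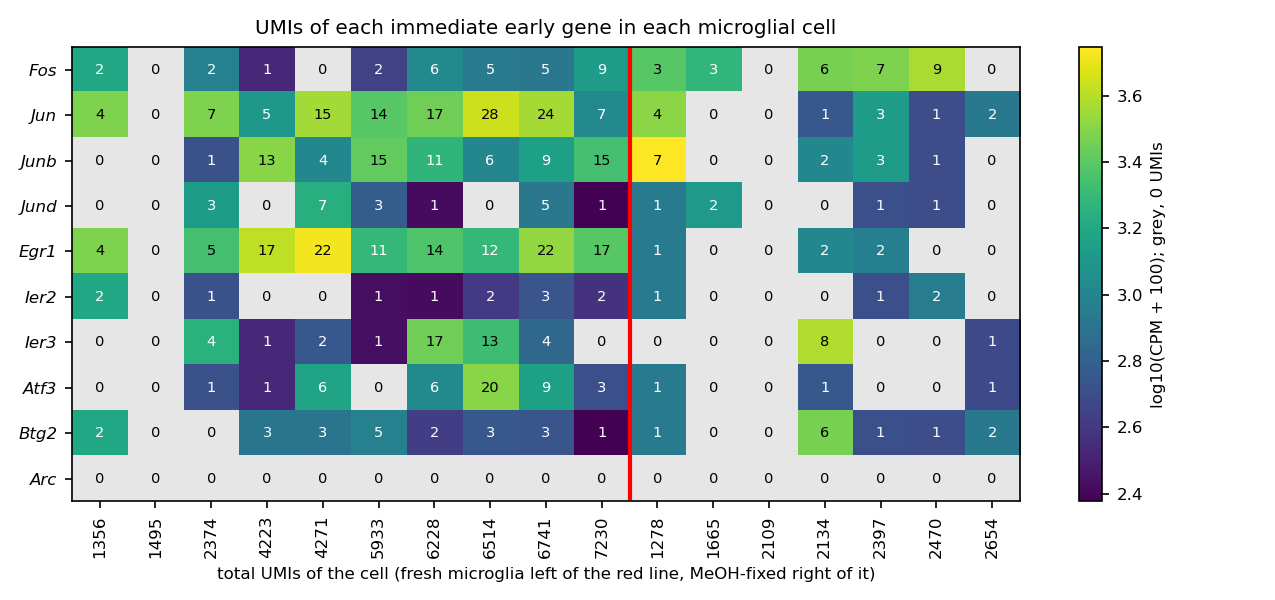
UMIs of each member (rows) in each of the 17 microglial cells (columns, labelled with the total UMIs of the cell), with fresh cells left of the red line, coloured by log10(CPM + 100). Egr1 and Jun are high across fresh cells, Fos is high in 5 of 7 MeOH-fixed cells, and 1 cell of each library holds no member.

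The difference between the libraries was next set out member by member, as the log2 ratio of CPM in MeOH-fixed over fresh cells. Over all filtered cells the members summed to 1563 CPM in fresh and 713 CPM in MeOH-fixed cells, a ratio of −1.13 (−1.29 to −0.97). With the identities weighted equally the ratio was −0.51, and 2 members were at least 2-fold lower. By CPM over all cells, all 10 had at least 20 UMIs over both libraries, and 4 of them (Atf3, Ier3, Junb and Egr1) were at least 2-fold lower in MeOH-fixed cells, where 9.00% of 8804 genes were at least 2-fold lower and 10.6% at least 2-fold higher. Without microglia the summed levels were 701 and 603 CPM, a ratio of −0.22 (−0.42 to −0.01), which turned to 0.023 with the identities weighted equally, so that its direction depended on how the identities were weighted. Then 8 members had 20 UMIs and 0 of them were 2-fold lower or higher, where 7.49% of 8491 genes were lower and 10.8% higher. Of these 8, Jund (226 and 141 CPM, −0.67, −1.08 to −0.27) was the member whose interval left out 0, and the others lay between −0.55 (Junb) and 0.70 (Arc). Outside microglia Ier3 had 3 and 2 UMIs and Atf3 had 0 and 2 UMIs.

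Within microglia the summed ratio was −0.81 (−1.16 to −0.48). Egr1 stood at −2.98 (−4.62 to −1.71), Atf3 at −2.28 (−4.61 to −0.64) and Jun at −1.80 (−2.84 to −0.91). Fos stood at 1.46 (0.68 to 2.24). The intervals of Junb (−0.85), Jund (−0.34), Ier3 (−0.57) and Btg2 (0.66) included 0. Thus 3 members were at least 2-fold lower and 1 was at least 2-fold higher among 8 with 20 UMIs, where 18.7% of 460 genes were lower and 10.7% higher. Of these 8, only Fos reached 20 UMIs in MeOH-fixed microglia alone, so the others entered through the fresh cells. Without the cell with the most member UMIs in each group, Ier3 stood at −2.97 in microglia, since that cell of the MeOH-fixed library held 8 of its 9 UMIs. Depth and mitochondrial content moved with the library as well, with medians of 5102 and 2134 UMIs per microglial cell and 9.84% and 13.7% of UMIs from mitochondrially encoded genes. Their part in the result was not tested beyond depth. After each cell was thinned to 800 UMIs, the expected share of microglia with a UMI was 80.5% and 25.6% for Egr1, 77.8% and 41.4% for Jun and 39.97% and 66.6% for Fos. Before thinning these shares were 90.0% and 42.9%, 90.0% and 71.4%, and 80.0% and 71.4%.

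**Figure D3:**
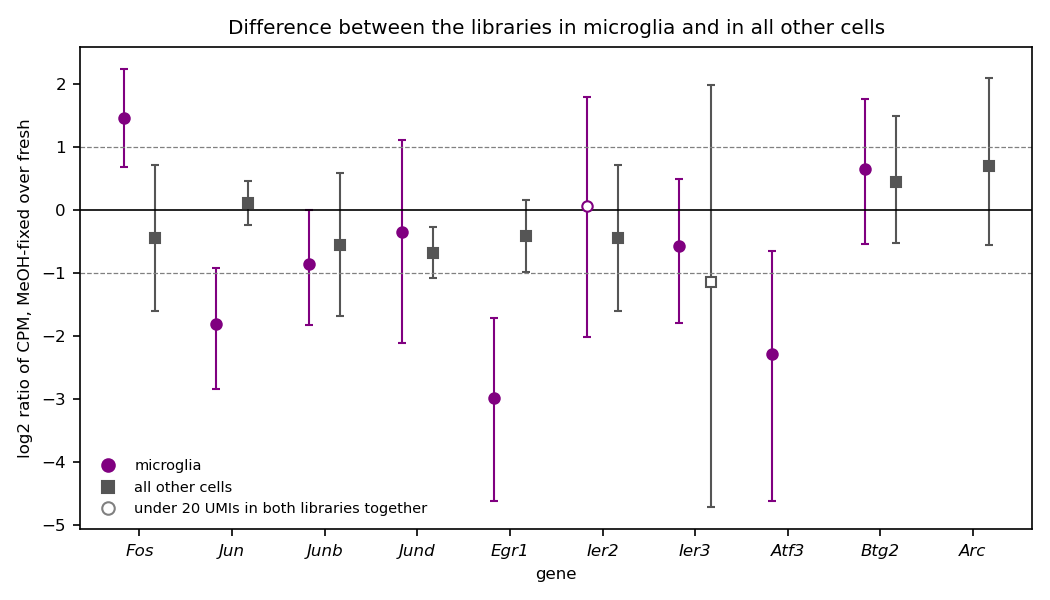
Log2 ratio of CPM in MeOH-fixed over fresh cells for each member, in microglia (circles) and in all other cells (squares), with 95% intervals. Dashed lines mark 2-fold, open symbols have under 20 UMIs, and members with 0 UMIs in a library are not drawn. In microglia Egr1, Atf3 and Jun lie below −1 and Fos lies above 1, and in the other cells the members with 20 UMIs lie within 1 of 0.

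Fos was also set against Egr1, Jun and Junb cell by cell. These genes were chosen after their values were seen and the UMIs are those of the ratios above, so the counts describe the same difference and do not support it. Among the 9 fresh microglia with a member, Fos had fewer UMIs than Egr1 in 9, fewer than Jun in 8 and fewer than Junb in 7. Among the 6 MeOH-fixed microglia with a member, Fos had more UMIs than Egr1 in 5 (and as many in the remaining 1), more than Jun in 4 and more than Junb in 4. The ratio of Fos to Egr1 UMIs was 0.258 in fresh and 5.60 in MeOH-fixed microglia, and that of Fos to Jun was 0.264 and 2.55. Of all member UMIs in microglia, Fos took 6.49% (4.48 to 9.04) and 31.5% (22.0 to 42.2), Egr1 took 25.2% (21.4 to 29.2) and 5.62% (1.85 to 12.6), and Junb took 15.0% and 14.6%. Since mice, dissociation run, stain, fixation, storage and plate all differed between the libraries, they cannot be told apart as the source.

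Set against all other cells of the same library, microglia were 15.2-fold higher in summed members when fresh (log2 ratio 3.92, 3.72 to 4.13) and 10.03-fold higher when MeOH-fixed (3.33, 2.98 to 3.66). In fresh cells 8 of the 9 members with 20 UMIs were at least 2-fold higher, where 16.5% of 5321 genes were, and in MeOH-fixed cells 6 of 6 were, where 14.3% of 6586 genes were. Only Jun, Jund and Egr1 reached 20 UMIs outside microglia in either library, apart from Btg2 in MeOH-fixed cells, so the others passed by way of microglia and these counts are descriptions. Junb was 51.9-fold and Ier3 147-fold higher in fresh cells, the latter against 3 UMIs (log2 7.20, 5.56 to 9.54). Atf3 had 0 UMIs in 54 other cells (a share of cells with a UMI of up to 5.56%). In fresh microglia it stood 161-fold above the level of 3 UMIs in those cells, a figure that leaves out the counting error of its own UMIs. Of the members with 20 UMIs Jund had the lowest ratios, 1.91-fold when fresh and 2.40-fold when MeOH-fixed, and the latter interval included 0 (log2 1.27, −0.39 to 2.54). Fos was 24.0-fold higher in fresh and 90.7-fold higher in MeOH-fixed microglia than in the other cells, while Egr1 was 25.1-fold and 4.26-fold higher and Jun 11.4-fold and 3.02-fold higher.

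Outside microglia the members fell into different identities. Jun was the leading member of immature neurons, at 468 CPM (342 to 627) in fresh and 414 CPM (345 to 493) in MeOH-fixed cells, in 4 of 5 and 18 of 25 cells. It made up 61.6% and 60.1% of the member UMIs of these cells, so the share was close in both libraries. In MeOH-fixed cells immature neurons held 125 of all 188 Jun UMIs (66.5%) and were 2.81-fold above all other cells (log2 1.49, 1.04 to 1.95). At least 2-fold higher there were 20.3% of 6586 genes. In fresh cells the corresponding log2 ratio was 0.13 (−0.38 to 0.60), with microglia among the other cells. Mature neurons had 0 UMIs of Jun in 2 fresh cells and 7 UMIs in 3 of 19 MeOH-fixed cells (81.7 CPM).

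In nIPCs and neuroblasts Egr1 and Ier2 were counted in both libraries. Egr1 stood at 279 CPM (206 to 369) in 11 of 16 fresh cells and at 341 CPM (229.8 to 486) in 8 of 21 MeOH-fixed cells. These cells had medians of 11468.5 and 3873 UMIs, so the shares of cells with a UMI were taken at unlike depth. Egr1 in MeOH-fixed microglia was at 340.0 CPM, and the log2 interval of the ratio between these identities (−1.38 to 1.73) included 0. Against all other MeOH-fixed cells it was 6.82-fold higher (log2 2.77, 2.0 to 3.53), and 2 of the 6 members with 20 UMIs were at least 2-fold higher there, Egr1 and Fos (log2 1.14, −0.05 to 2.20), where 14.4% of genes were. Ier2 stood at 74.0 and 102 CPM in these progenitors, and Fos at 39.8 and 114 CPM. In fresh immature neurons Egr1 had 2 UMIs in 2 of 5 cells, and in MeOH-fixed immature neurons 22 UMIs in 6 of 25 cells (72.9 CPM). The log2 ratio of 1.81 (−0.22 to 4.94) rests on these 2 UMIs, and Egr1 was the only 1 of 3 members with 20 UMIs past 2-fold there, as were 13.9% of 4029 genes.

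Endothelial cells were few, at 6 fresh and 8 MeOH-fixed cells. Their summed members stood 2.33-fold above all other cells in the MeOH-fixed library (log2 1.22, 0.67 to 1.73). In the fresh library the log2 ratio was −0.55 (−1.25 to 0.07), with microglia among the other cells. After microglia, endothelial cells had the highest summed level in both libraries (1082 CPM when fresh and 1604 CPM when MeOH-fixed). Jund had 10 UMIs in 5 of 8 MeOH-fixed cells (486 CPM, against 340.0 CPM in MeOH-fixed microglia, log2 0.52, −1.17 to 2.41) and 7 UMIs in 3 of 6 fresh cells (361 CPM). Btg2 had 10 UMIs in 3 of 8 MeOH-fixed cells (486 CPM) and 2 UMIs in 2 of 6 fresh cells (103 CPM). In MeOH-fixed endothelial cells 3 of 6 members with 20 UMIs were at least 2-fold above the other cells, Btg2 (11.9-fold), Jund (3.59-fold) and Fos (2.58-fold, 3 UMIs from 1 cell, log2 1.37, −0.97 to 3.02), where 14.8% of genes were. Within the endothelial cells the 4 cells with pericyte markers held 1 of 21 and 3 of 33 member UMIs, so nearly all came from the remaining cells.

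Arc, whose protein acts at synapses and whose messenger RNA is carried into dendrites, was counted mainly outside neurons. Oligodendrocytes held 8 UMIs in 2 of 2 fresh cells (329 CPM, 142 to 648) and 10 UMIs in 5 of 13 MeOH-fixed cells (110.2 CPM, 52.9 to 203), which was 18 of 27 UMIs (66.7%). No other fresh identity had a UMI of Arc. In neurons, immature and mature together, Arc was counted in 0 of 7 fresh cells and in 6 of 44 MeOH-fixed cells with 1 UMI each (15.5 CPM). In MeOH-fixed cells oligodendrocytes thus stood 7.82-fold above all other cells (log2 2.97, 1.51 to 4.44), with 19 UMIs in all and so under the minimum of 20. Over both libraries astrocytes and RGLs had the fewest members counted, since Junb, Egr1, Ier2, Atf3 and Arc were at 0 in both libraries (18 and 29 cells, shares of cells with a UMI of up to 16.7% and 10.3%). Jund and Jun made up most of their UMIs, with 16 and 12 of 31 in fresh and 9 and 5 of 15 in MeOH-fixed cells. Jund was the member counted in all 8 identities of both libraries, between 81.7 and 431 CPM in fresh and between 58.3 and 486 CPM in MeOH-fixed cells.

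**Figure D4:**
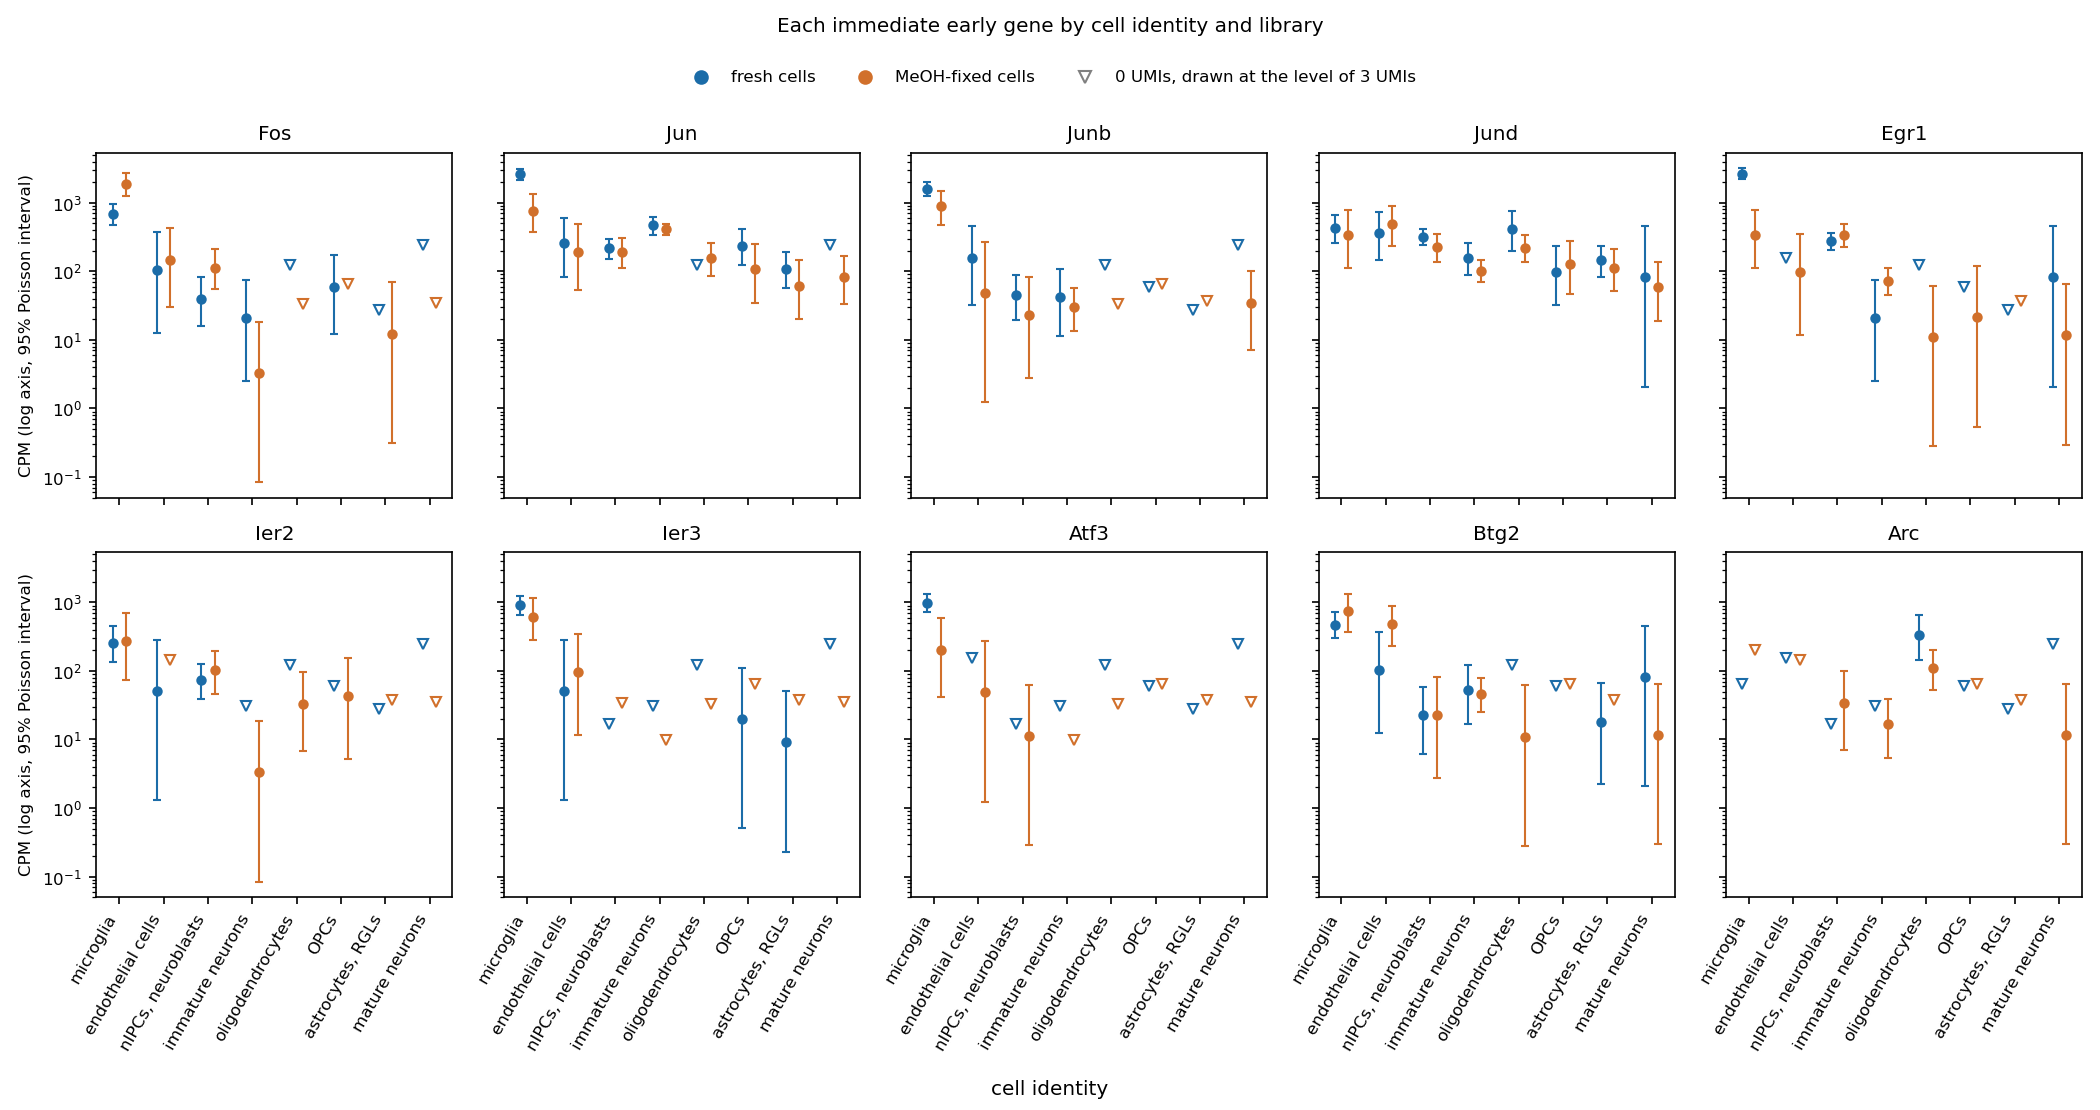
CPM of each member (log axis, 95% Poisson intervals) in each identity, fresh in blue and MeOH-fixed in orange, with open triangles at the level of 3 UMIs where 0 UMIs were counted. Microglia lead for most members, Jun stands at 468 and 414 CPM in immature neurons, Egr1 at 279 and 341 CPM in nIPCs and neuroblasts, and Arc is highest in oligodendrocytes (329 and 110.2 CPM).

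Co-occurrence was taken as the number of members with at least 1 UMI in the same cell. Fresh microglia had a median of 8 members per cell, MeOH-fixed microglia 6, fresh and MeOH-fixed neurons 3 and 1, and fresh and MeOH-fixed endothelial cells 1 and 2. At least 3 members were counted in 9 of 10 fresh microglia (90.0%, 55.5 to 99.7) and in 5 of 7 MeOH-fixed microglia (71.4%, 29.0 to 96.3). In neurons this held for 4 of 7 fresh cells (57.1%) and 12 of 44 MeOH-fixed cells (27.3%), and in endothelial cells for 2 of 6 (33.3%) and 4 of 8 (50%). The mix of neurons differed, with 5 immature and 2 mature fresh cells against 25 and 19 MeOH-fixed cells. Among immature neurons the count was 3 of 5 (interval 14.7% to 94.7%) and 12 of 25 (27.8% to 68.7%), and among mature neurons 1 of 2 and 0 of 19. Neurons were the deepest of these cells, with medians of 8572 and 5931.5 UMIs, against 5102 and 2134 in microglia and 3219 and 2046.5 in endothelial cells. After thinning to 800 UMIs per cell the expected share with at least 3 members was 85.4% and 52.2% in microglia, 0.453% and 0.716% in neurons and 2.98% and 17.9% in endothelial cells. Microglia therefore stayed above both other identities at equal depth.

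The cells of an identity did not all carry the members. In the fresh library 1 microglial cell of 1495 UMIs held none, and in the MeOH-fixed library the 1 cell with macrophage markers (2109 UMIs) held none, while the remaining 15 microglial cells held between 2 and 9 members. Fos, Jun and Egr1 were counted together in 8 of 10 fresh and 3 of 7 MeOH-fixed microglia, in 1 of 7 and 1 of 44 neurons, and in 0 of 6 and 0 of 8 endothelial cells. Jun and Egr1 shared the same 9 fresh microglial cells, and all 8 fresh microglia with Fos were among them. In MeOH-fixed microglia Fos and Jun shared 4 cells of 5 each, and Btg2 was in all 5 cells with Jun. In MeOH-fixed neurons Jun and Jund were together in 9 of the 21 cells with Jun. In MeOH-fixed endothelial cells all 3 cells with Btg2 also held Jund. Where genes are counted in nearly every cell, as in fresh microglia, such overlap follows from their single shares. The joint counts were not set against that overlap, so they describe detection only.

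**Figure D5:**
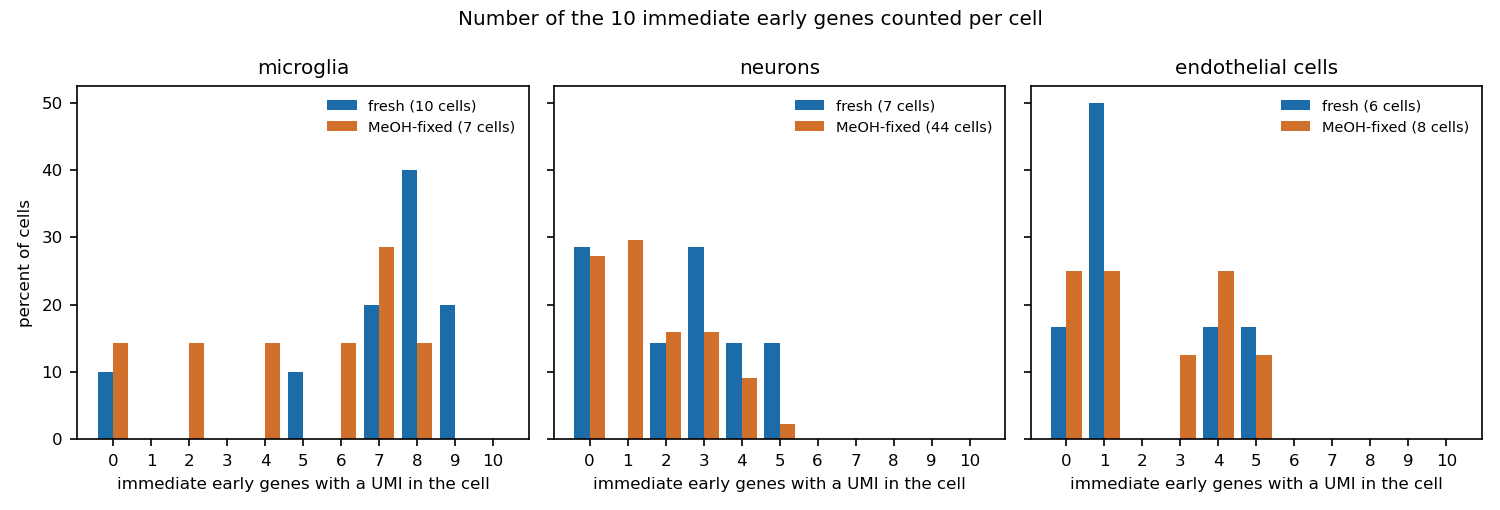
Percent of cells by the number of members with a UMI, in microglia, neurons and endothelial cells, fresh in blue and MeOH-fixed in orange. Most microglia lie at 5 to 9 members, and neurons and endothelial cells lie at 0 to 5.

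Other immediate early genes were taken from a list of 56, of which 53 were in the counts. Over all cells 36 had 20 UMIs, of which 16 were at least 2-fold lower and 5 at least 2-fold higher in MeOH-fixed cells, with a median log2 ratio of −0.80 against 0.09 for all genes, of which 9.00% were lower and 10.6% higher. The 4 lowest ratios over all cells were those of Klf6 (131 and 27.4 CPM), Zfp36 (189 and 43.9 CPM), Dusp2 (37.4 and 9.60 CPM) and Zfp36l2 (86.1 and 23.3 CPM). The 4 highest were those of Homer1 (48.7 and 100.1 CPM), Nrn1 (169 and 395 CPM), Cebpd (20.6 and 42.5 CPM) and Nr4a1 (11.2 and 30.2 CPM), of which Homer1 and Nrn1 are known from active neurons. The share of UMIs from immature neurons was higher too, from 18.0% of the fresh to 41.4% of the MeOH-fixed library, and that of mature neurons from 2.29% to 11.8%, and the part of this in the result was not tested. Without microglia 7 of 29 were lower and 6 higher (median −0.15 against 0.10), where 7.49% and 10.8% of genes were. Within microglia 3 of 15 were lower, Klf6 (841 and 136 CPM, −2.63, −5.72 to −0.68), Zfp36l1 (841 and 204 CPM, −2.04, −4.38 to −0.39) and Ppp1r15a (819.6 and 408 CPM, −1.01, interval −2.54 to 0.25), and 1 was higher, Sgk1, a kinase induced by glucocorticoids (690.2 and 2652 CPM, 1.94). Counts of 3 and 1 in 15 lie near the shares of all genes in microglia (18.7% lower and 10.7% higher). Dusp1, the phosphatase that ends MAP kinase signals, stood at 884 and 1292 CPM in microglia (0.55, −0.32 to 1.36), and Nfkbia, the inhibitor of NF-κB, at 2199.9 and 2448 CPM. Zfp36, which speeds the decay of messenger RNAs, stood at 2071 and 1359.9 CPM and Rhob, a small GTPase, at 1078 and 1088 CPM. In fresh cells 19 of 25 of these genes were at least 2-fold higher in microglia than in other cells, where 16.5% of genes were, and 8 of the 19 had under 20 UMIs in the other cells and so passed by way of microglia. Nrn1 had 0 UMIs in fresh microglia, where 3 UMIs would stand at 64.7 CPM, and 184.5 CPM in the other fresh cells. Homer1 also had 0 UMIs there, with 53.3 CPM in the other cells, a level below that of 3 UMIs in fresh microglia, so no direction is given for it.

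Of 29 upstream kinases and factors, 25 had 20 UMIs over all cells, and 2 were at least 2-fold lower and 8 at least 2-fold higher in MeOH-fixed cells, where 9.00% and 10.6% of genes were (median log2 ratio 0.58 against 0.09). Of 22 with 20 UMIs in the MeOH-fixed library, 14 were at least 2-fold higher in immature neurons than in the other cells (where 20.3% of genes were), and the share of UMIs from these neurons differed between the libraries as given above. Within immature neurons the median of MeOH-fixed over fresh was 0.26, with 20 genes, and within nIPCs and neuroblasts −0.09, with 9. None of the 29 reached 20 UMIs in microglia. Of 14 early inflammatory genes of microglia, 13 were in the counts and 5 had 20 UMIs in microglia, where 0 were lower and 3 higher in MeOH-fixed cells, against 18.7% and 10.7% of all genes there. These 3, named after their values were seen, were the chemokines Ccl3 (518 and 2516 CPM, 2.28) and Ccl4 (388 and 2992 CPM, 2.95) and the cytokine Il1a (151 and 884 CPM, 2.55). They lay on the same side as Fos, and opposite to Egr1, Jun and Atf3. Ccl4 (18 fresh and 44 MeOH-fixed UMIs) reached 20 UMIs only in MeOH-fixed microglia. Il1a (7 and 13 UMIs) reached 20 UMIs only over both libraries, so these counts are descriptions. Listed genes under the minimum lay on both sides, such as Tnf (14 and 1 UMIs, −2.15) and Cxcl10 (1 and 3 UMIs, 3.24).

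Likeness of pattern was measured as Pearson's r of log2(CPM + 10) over the 14 groups of identity and library with at least 5 cells, among 5091 genes with at least 50 UMIs. The most similar gene was Dusp1 for Fos (0.943), Itgam for Ier3 (0.977), Ly86 for Atf3 (0.970), Plek for Junb (0.911) and Sipa1 for Btg2 (0.914). For Jun, Jund and Egr1 it was Pabpc1 (0.835), Rps3 (0.874) and Rpl21 (0.936), which serve translation. The 3 genes most similar to the summed members were Fau (0.922), Rps13 (0.898) and Rplp1 (0.887), which serve translation too. Between members the highest r was that of Ier3 and Atf3 (0.910) and the lowest that of Jun and Jund (0.534). The points share libraries, depth and the microglial groups, and these values are descriptions.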

How the data were processed

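Single cells of 1 fresh and 1 MeOH-fixed plate were sequenced by SORT-seq. The authors mapped reads to GRCm38 with STAR, collapsed duplicate reads by their UMI and deposited expected counts, which are UMI numbers adjusted for the chance that molecules share 1 of 4096 UMIs, before and after their filter on cells. The percentage of mitochondrial counts of each cell was deposited by the authors too, as were the identities, made with Seurat 4.1.0 in R 4.2.0. Inverting the adjustment of the deposited expected counts gave whole UMIs, at most 3.64e-12 from a whole number. The UMIs of the filtered cells did not differ between the filtered and unfiltered tables.

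UMIs were summed over the cells of an identity and library and scaled to CPM by the summed UMIs. Sums have exact Poisson intervals, shares of cells exact Clopper-Pearson intervals and ratios exact conditional binomial intervals, all at 95% and for counting error only. UMIs of 1 cell, and cells of 1 pool of mice, are not independent samples, and the spread between mice was not measured. Groups had 1 library each, so no test was made. A gene was counted as lower or higher from a 2-fold ratio on at least 20 UMIs over both groups. Members at 0 were given the level of 3 UMIs for a bound, or that share of cells. Shares of cells were also computed as the mean over all ways of thinning each cell to 800 UMIs, and no cell was below 800.

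The text names the 10 members, the other listed immediate early genes with the 4 highest and 4 lowest ratios or highest in fresh microglia, those past 2-fold in microglia, and the gene most similar to each member. It also names the 3 genes most similar to the summed members, and Tnf and Cxcl10 as inflammatory genes under the minimum. The members and lists were chosen with earlier results of these data known. Doublets were not called, and free RNA was not estimated with a dedicated tool. Mfsd4a, Hbb-bs, Hba-a2, Ttr, Folr1 and Lyve1 of the marker lists were not among the genes listed. Alternatives comprised 67 listed at the outset, all of them run, and 24 added after the data were seen. Scripts ran in Python 3.11.15 (scipy 1.17.1, numpy 2.4.6, pandas 2.3.3, plots by matplotlib 3.10.9), and the ratios and thinning were tested on simulated data.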

Additional observations from a re-analysis of the deposited data

Results flagged for a closer look

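Members were also counted in the barcodes that failed the filter on cells, which the comparisons did not use, and those with more than 3 UMIs in a library are given here. In the fresh library 320 such barcodes held 140164 UMIs, of which 68 were of members (485 CPM), with 30 UMIs of Jun, 16 of Jund, 10 of Egr1, 4 of Junb and 4 of Atf3. A single barcode of 44514 UMIs held 17 of the 68, 12 of them of Jun. That barcode lies above the upper limit on transcripts of the authors' filter, so it did not fail for few UMIs. In the MeOH-fixed library 252 barcodes held 83655 UMIs, of which 32 were of members (383 CPM), with 9 UMIs of Jun, 7 of Jund, 7 of Egr1 and 4 of Arc. The summed markers of microglia stood at 1027 and 1375 CPM in these barcodes. Fos had 1 UMI in the barcodes of the fresh plate and 0 in those of the MeOH-fixed plate. The 384 barcodes of a plate include the wells left empty as controls. Whether the UMIs of the other failed barcodes come from free RNA, damaged cells or another source was not tested.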

How the results depend on the processing

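No paired analysis was possible because each condition was 1 library and no result comes from a test. Of 75 values of the main comparisons under alternatives, 60 kept their direction and size, 14 moved and 1 reversed. For the summed log2 ratio of MeOH-fixed over fresh cells, mean UMIs per cell in place of CPM gave −1.73 over all cells, −1.96 in microglia and −0.88 in the other cells, a mean over identities gave −0.51 over all cells and 0.023 without microglia (a change of sign), and leaving out Jun gave −1.31. For microglia over other cells, a mean of per-cell CPM gave 3.72 and leaving out Jund 4.42 in fresh cells, and leaving out Jun 3.90 in MeOH-fixed cells. The 4 members at least 2-fold lower became 8 with mean UMIs per cell, 2 with a mean over identities and 0 without microglia. Thinning gave shares with at least 3 members of 0.453% and 0.716% in fresh and MeOH-fixed neurons and 2.98% in fresh endothelial cells. Of 149 values of single members, added after the data were seen, 144 stayed and 5 moved, 2 of them for Ier3 without the cell with the most member UMIs. In the means of UMIs per cell the fewer UMIs of MeOH-fixed cells enter the ratio by construction. The cause of the other differences was not tested. With 2 to 8 cells in several identities, few UMIs and 1 library, a difference in a single identity was mostly not detectable at this depth.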
